A study of Mus musculus with 24 samples.

Results

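The nuclear factor I family of the mouse is made up of 4 genes, Nfia, Nfib, Nfic and Nfix, and all 4 were listed in each of the 3 deposited tables, which hold 23792 genes for E13.5 pericytes, 21860 for E11.5 pericytes and 20523 for E13.5 endothelial cells. The members were named by symbol and chosen by their mutant and control means and by the change in controls between the stages, so these values are given as a description and no test is drawn from them. The study sequenced mRNA of cells sorted from the brains of mouse embryos, in 24 libraries. Mutant embryos were Pdgfrb-Cre, Alk5(flox/flox), Zs/+ and the labels give their disease state as GMH-IVH. Control embryos were Pdgfrb-Cre, Alk5(flox/+), Zs/+, so both groups carried the Cre, the ZsGreen allele and at least 1 floxed copy of Alk5, and no Cre-free or unfloxed group was used. Alk5 is the older name of Tgfbr1, the type I receptor for TGF-beta. The groups were 4 mutant and 4 control samples of pericytes at E13.5, 4 mutant and 4 control samples of pericytes at E11.5, and 3 mutant and 5 control samples of endothelial cells at E13.5. Pdgfrb-Cre acts in pericytes and in other mural and mesenchymal cells, which limits how far the sorted cells can be read as brain pericytes alone. For the endothelial cells, mutant names the genotype of the embryo, and deletion of Alk5 in those cells was not tested. The labels do not say whether embryos were pooled, nor their stage more finely than the embryonic day.

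Nuclear factor I proteins are transcription factors that bind DNA as dimers at a palindrome made of the half-site TTGGC and its reverse complement. They share a conserved DNA-binding domain and can activate or repress their targets. In the mouse brain Nfia and Nfib are known for the onset of gliogenesis, Nfix for the timing of progenitor differentiation, and Nfic is best known from tooth root formation. In fetal skeletal muscle Nfix drives the switch from the embryonic to the fetal programme.

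RefSeq promoter windows (GRCm38.p6) were matched for 3 of the 4 genes and are shown because the 4 members were all lower in E11.5 mutants and because the receptor targeted in the mutants signals through SMAD factors, whose half-element is CAGAC. Each window runs from 250 bases before to 50 bases after an annotated start, 5′ to 3′. Capitals mark TTGGC or CAGAC on either strand. All windows that the RefSeq table holds for the 3 genes are shown. Those of Nfix are start 1 at chr8:84780033-84780332, start 2 at chr8:84775779-84776078, start 3 at chr8:84773361-84773660 and start 4 at chr8:84772826-84773125, all on the minus strand. Those of Nfia and Nfic are at chr4:97581693-97581992 (plus strand) and chr10:81427124-81427423 (minus strand). The Nfix and Nfic windows lie inside the GENCODE spans of these genes given further on, while the Nfia window belongs to a RefSeq start well upstream of the GENCODE start of Nfia, within the span of the opposite-strand gene E130114P18Rik.
Nfix start 1: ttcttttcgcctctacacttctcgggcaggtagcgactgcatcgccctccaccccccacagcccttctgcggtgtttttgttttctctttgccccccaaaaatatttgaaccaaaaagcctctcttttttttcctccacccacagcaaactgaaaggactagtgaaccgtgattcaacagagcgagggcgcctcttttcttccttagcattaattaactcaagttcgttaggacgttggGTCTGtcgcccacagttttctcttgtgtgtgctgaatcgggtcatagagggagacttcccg
Nfix start 2: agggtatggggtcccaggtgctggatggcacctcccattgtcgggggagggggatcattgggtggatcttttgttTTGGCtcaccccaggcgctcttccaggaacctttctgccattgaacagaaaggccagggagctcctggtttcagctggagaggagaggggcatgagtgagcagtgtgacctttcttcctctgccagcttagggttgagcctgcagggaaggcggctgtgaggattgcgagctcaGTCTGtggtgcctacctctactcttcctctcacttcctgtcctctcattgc
Nfix start 3: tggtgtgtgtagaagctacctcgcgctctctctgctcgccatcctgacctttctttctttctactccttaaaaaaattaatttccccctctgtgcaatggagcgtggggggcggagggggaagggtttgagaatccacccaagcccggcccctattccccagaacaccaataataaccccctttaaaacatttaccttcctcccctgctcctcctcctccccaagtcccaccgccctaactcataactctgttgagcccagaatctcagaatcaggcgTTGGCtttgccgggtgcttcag
Nfix start 4: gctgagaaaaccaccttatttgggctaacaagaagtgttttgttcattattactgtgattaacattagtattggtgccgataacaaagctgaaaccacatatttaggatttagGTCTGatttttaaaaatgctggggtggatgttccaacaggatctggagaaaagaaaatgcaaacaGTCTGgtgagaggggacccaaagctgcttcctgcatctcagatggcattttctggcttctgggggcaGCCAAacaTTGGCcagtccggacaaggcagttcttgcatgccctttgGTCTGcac
Nfia: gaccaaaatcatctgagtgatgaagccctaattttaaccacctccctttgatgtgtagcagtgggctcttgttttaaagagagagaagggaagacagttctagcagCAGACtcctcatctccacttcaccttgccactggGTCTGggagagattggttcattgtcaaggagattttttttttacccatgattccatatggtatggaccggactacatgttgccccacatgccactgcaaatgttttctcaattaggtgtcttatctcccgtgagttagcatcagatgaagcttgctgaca
Nfic: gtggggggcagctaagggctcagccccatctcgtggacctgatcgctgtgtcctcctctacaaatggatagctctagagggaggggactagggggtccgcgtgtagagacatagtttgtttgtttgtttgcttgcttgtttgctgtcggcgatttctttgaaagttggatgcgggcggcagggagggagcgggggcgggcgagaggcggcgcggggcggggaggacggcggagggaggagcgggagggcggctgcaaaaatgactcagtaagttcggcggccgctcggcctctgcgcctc
The full palindrome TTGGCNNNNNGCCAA was in none of these windows, and it occurs in 0.0365% of 32851 promoter windows of the same length, both strands searched. Nfix start 4 held 2 half-sites, GCCAA followed after the bases aca by TTGGC, and 3 copies of the CAGAC element, and Nfia held 2 copies of CAGAC. Nfix start 1 held 1 copy of CAGAC and no TTGGC, start 2 held 1 copy of each, start 3 held 1 TTGGC and no CAGAC, while Nfic held neither. TTGGC is in 46.7% and CAGAC in 49.6% of all windows, so single matches are common, and the SMAD palindrome GTCTAGAC, found in 0.213% of windows, was in none of the 6 shown. A match describes letters in the window and not binding.

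At E11.5 all 4 genes were lower in mutant pericytes, and Nfix was lower by far more than the others. Nfix had an authors' mean of 11.1 normalized read counts in mutants, against 141 in controls, or 7.85% of the control level in the authors' deposited table. This placed Nfix at the 15.5th percentile of gene levels in mutant pericytes and at the 45.0th percentile in control pericytes. Nfib had a mean of 889 in mutants, against 2119 in controls, Nfia a mean of 1710 in mutants, against 3678 in controls, and Nfic a mean of 812 in mutants, against 1724 in controls, in the authors' deposited table. Those 3 genes stood at between 42.0% and 47.1% of control and remained among the more abundant RNAs, from the 77.8th to the 90.5th percentile in mutants and from the 91.1st to the 97.2nd in controls. In sorted bulk cells, fewer cells that express a gene and less RNA of it per cell cannot be told apart.

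**Figure D1:**
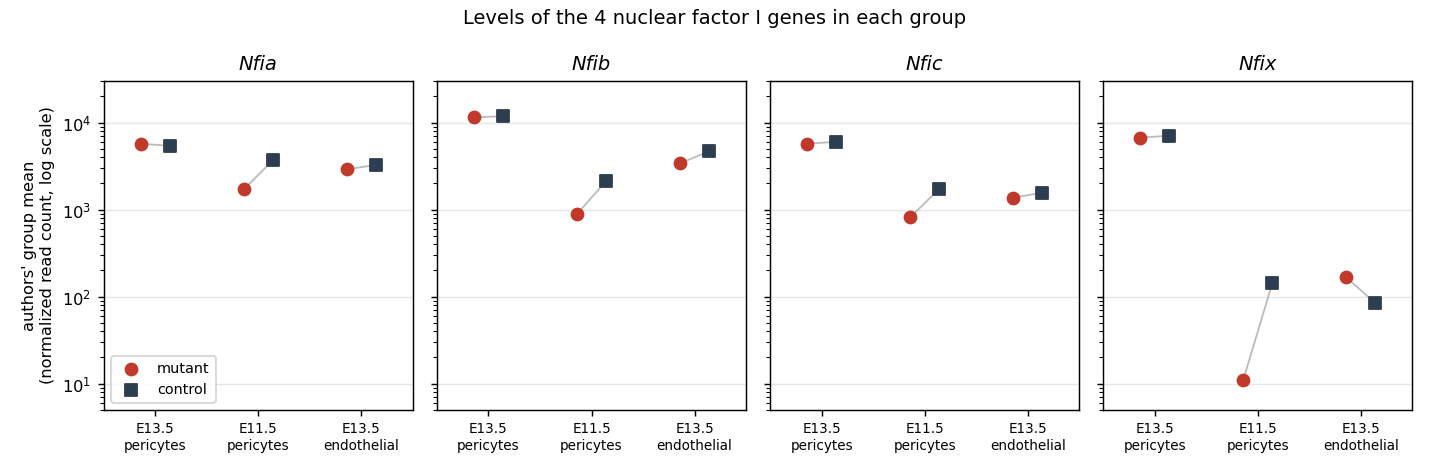
Authors' group means of Nfia, Nfib, Nfic and Nfix (y axis, normalized read count on a log scale) in mutants (red circles) and controls (dark squares) for the 3 sorted populations (x axis), with no error bar because each table gives 1 mean per group. At E11.5 the mutant point lies below the control point in all 4 panels, and for Nfix it lies at 11.1 against 141.

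The log2 ratio of mutant to control in E11.5 pericytes was -3.67 for Nfix, with a standard error (SE) of 0.59 implied by the authors' ratio and p in the deposited table. It was -1.25 (SE 0.26) for Nfib, -1.10 (SE 0.28) for Nfia and -1.09 (SE 0.23) for Nfic. The 95% intervals ran from -4.82 to -2.52 for Nfix, from -1.76 to -0.75 for Nfib, from -1.65 to -0.56 for Nfia and from -1.53 to -0.64 for Nfic. The deposited adjusted p (false discovery rate, FDR) was 7.8e-07 for Nfix, 0.00038 for Nfib, 0.00056 for Nfic and 0.0073 for Nfia. All 4 members thus lie under an FDR of 0.05 and lower in mutants, where 2.7% of the 19301 genes tested do (3.35% in either direction), but the members were picked with this comparison in view and nothing is read from that count. Only 4 genes had a lower log2 ratio than Nfix in that table, and 10 had a smaller p. The SE rests on the authors' p being a Wald p, and when the spread of all genes was rescaled so that the median gene matched chance, the adjusted p became 0.0616 for Nfix and between 0.430 and 0.840 for the other 3.

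**Figure D2:**
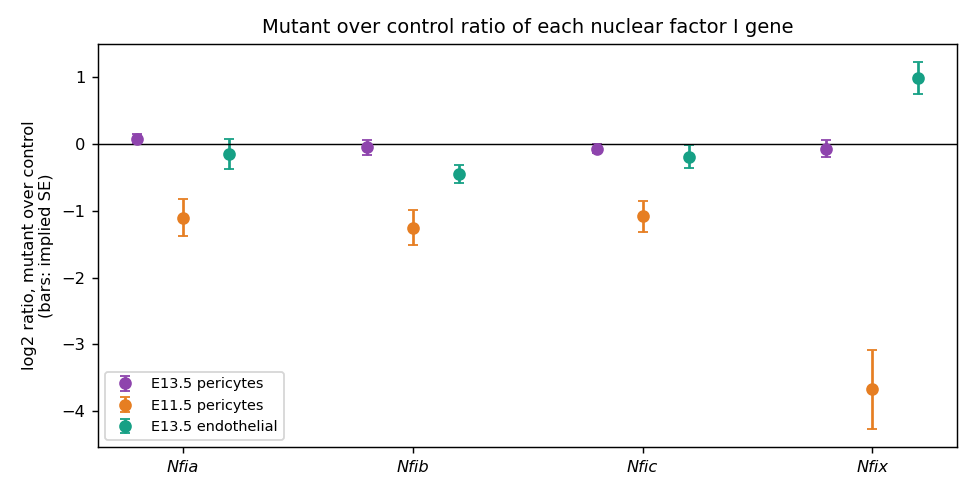
Log2 ratio of mutant over control (y axis) for each nuclear factor I gene (x axis) in E13.5 pericytes, E11.5 pericytes and E13.5 endothelial cells, with bars of 1 implied SE. The E11.5 points lie between -3.67 and -1.09, the E13.5 pericyte points lie close to 0, and Nfix is positive only in the endothelial cells.

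**Figure D3:**
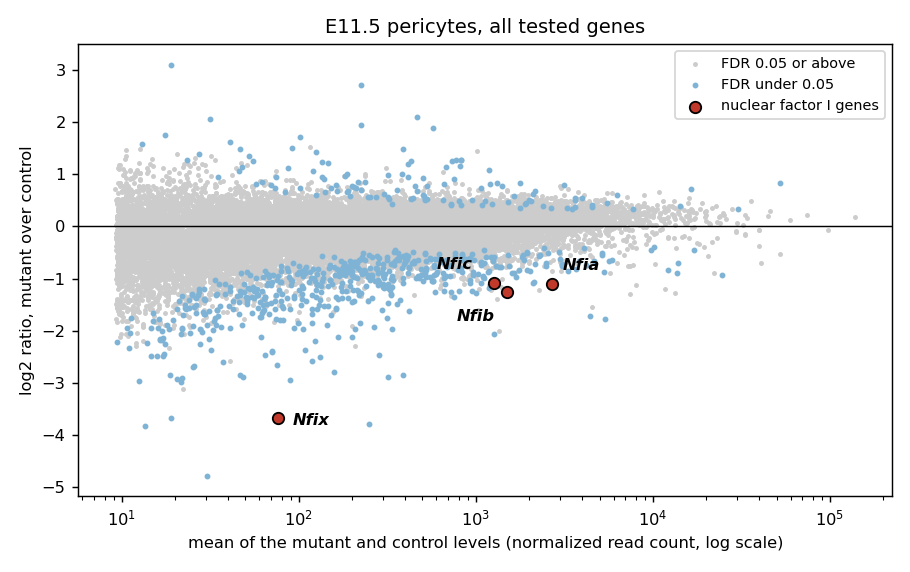
Log2 ratio of mutant over control (y axis) against the mean level (x axis, log scale) for the 19301 tested genes of E11.5 pericytes, with genes under an FDR of 0.05 in blue and the nuclear factor I genes in red. Nfia, Nfib and Nfic sit together between -1.25 and -1.09, and Nfix sits apart at -3.67 and at a lower level.

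The lower levels at E11.5 came with lower levels of markers of several cell types in the same deposited table, whose part in the result was not tested. Of 9 pericyte markers tested 5 fell, where 2.7% of all genes tested did. The summed means of the listed pericyte markers were 10918 in mutants and 13692 in controls, or 79.7% of control. Of 11 fibroblast and meningeal markers 4 fell, with sums of 76185 in mutants and 101580 in controls (75.0%). Of 6 cartilage and bone progenitor markers 2 fell (19269 in mutants and 24104 in controls, 79.9%), and of 8 neural progenitor markers 1 fell (5762 in mutants and 5998 in controls, 96.1%). Myeloid and endothelial sums were further below control. Of 10 myeloid markers 2 fell (985 in mutants and 1883 in controls, 52.3%). All 10 had a log2 ratio below 0 (median -1.07), 9 of them at an unadjusted p under 0.05. Of 7 endothelial markers 1 fell (459 in mutants and 995 in controls, 46.1%). All 7 had a log2 ratio below 0 (median -1.09), 5 of them at an unadjusted p under 0.05. The 1 endothelial marker under an FDR of 0.05 was Erg, with 34.1 in mutants, against 203 in controls (FDR 0.00041). At E13.5 the control mean of Erg was 1868 in pericytes and 741 in endothelial cells, while that of Cdh5 was 876 and 19917. The tables of the 2 sorts were normalized separately, and the source of the Erg reads at E11.5 was not tested. Of 5 neuron markers 1 rose, Gap43, with 2339 in mutants, against 1653 in controls, and the median log2 ratio of the 5 was 0.04. Of 4 skeletal muscle markers, 2 Schwann and crest markers and 3 erythroid markers tested, none passed, with 2, 1 and 1 at an unadjusted p under 0.05. Low genes also ran lower in this table, with a median log2 ratio of -0.23 in the lowest 25% of levels and 0.10 in the highest 25%, and the part of this trend in the members' ratios was not tested.

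At E13.5 the mutant pericytes had nuclear factor I levels close to those of controls. Nfix had a mean of 6715 in mutants, against 7053 in controls, Nfib 11430 in mutants, against 11850 in controls, Nfic 5703 in mutants, against 6002 in controls, and Nfia 5692 in mutants, against 5419 in controls, in the authors' deposited table. The log2 ratios were -0.07 (SE 0.12) for Nfix, -0.05 (SE 0.11) for Nfib, -0.07 (SE 0.06) for Nfic and 0.07 (SE 0.08) for Nfia. The 95% intervals ran from -0.31 to 0.17 for Nfix, from -0.20 to 0.05 for Nfic, from -0.27 to 0.17 for Nfib and from -0.09 to 0.23 for Nfia. None of the 4 was under an FDR of 0.05 (deposited FDR 1.00 and unadjusted p between 0.252 and 0.647), where 0.388% of 20084 genes were (0.164% lower and 0.224% higher). The contrast between the stages was not tested, since both comparisons chose the members. In this table Xist, an RNA of female cells, averaged 5.73 in mutants and 36145 in controls by the authors' means, and sex and genotype cannot be told apart here. Xist was not listed for E11.5 pericytes or for endothelial cells, so the sex of those samples was not assessed. In E13.5 pericytes erythroid markers summed to 1965 in mutants and 443 in controls, with 0 of 5 called and 3 at an unadjusted p under 0.05. Of 9 pericyte markers 1 fell, Rgs5, with 1965 in mutants, against 2933 in controls (FDR 0.00022). Of 7 endothelial markers 1 fell, Erg, with 1203 in mutants, against 1868 in controls (FDR 0.00069). The part of these markers was not tested. Tgfbr1 itself, read over the whole gene and so no measure of the deleted exons, had log2 ratios of 0.03 (SE 0.08) at E13.5, 0.43 (SE 0.27) at E11.5 and -0.11 (SE 0.23) in endothelial cells in the authors' deposited tables.

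Control pericytes had higher nuclear factor I means at E13.5 than at E11.5, with the widest gap for Nfix. The authors' control mean of Nfix was 7053 at E13.5, against 141 at E11.5, which is 49.9-fold as deposited. Nfib was 5.59-fold higher (11850 at E13.5, against 2119 at E11.5), Nfic 3.48-fold (6002 at E13.5, against 1724 at E11.5) and Nfia 1.47-fold (5419 at E13.5, against 3678 at E11.5). The tables were normalized separately and the median of the 18422 genes with a level of at least 10 at both stages was itself 0.42 higher at E13.5 on the log2 scale. Relative to that median the log2 change was 5.22 for Nfix, 2.07 for Nfib, 1.38 for Nfic and 0.14 for Nfia, and scaled to equal sums Nfia turned to -0.17 while the other 3 stayed positive. Nfix had the 11th largest change of the 18422 genes, Nfib the 916th, Nfic the 2364th and Nfia the 8217th. These are differences of group means with no value per library, and no test was made.

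In mutant pericytes the same comparison of means was wider. It uses the same mutant means as the ratios of mutant to control given above, so it is not a separate observation. Nfix had 6715 at E13.5, against 11.1 at E11.5, a 605-fold difference as deposited and the largest among the 18422 genes. That fold and rank rest on the low E11.5 mutant mean, for which no counting interval could be given. The mutant log2 changes relative to the median gene were 8.81 for Nfix, 3.26 for Nfib, 2.38 for Nfic and 1.31 for Nfia. Between the stages in controls, 10 of 11 fibroblast and meningeal markers and 5 of 6 cartilage and bone markers were also higher at E13.5 relative to the median gene, with median log2 changes of 1.54 and 2.57. Pericyte markers had a median change of 0.35, with 6 of 9 higher. The part of these cells in the change of the nuclear factor I genes was not tested.

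Per kilobase of annotated exon, the family summed to 3061 in mutants and 3155 in controls at E13.5, and to 340 in mutants and 759 in controls at E11.5, or 44.9% of control. In E13.5 control pericytes Nfix stood at 959 per kb, Nfic at 905, Nfib at 792 and Nfia at 498. At E11.5 the order in controls was Nfia at 338, Nfic at 260, Nfib at 142 and Nfix at 19.2 per kb. Nfix therefore made up 29.8% of the family sum in mutants and 30.4% in controls at E13.5, and 0.443% in mutants and 2.53% in controls at E11.5. Nfia made up 46.1% in mutants and 44.5% in controls at E11.5, so the mix of the 3 abundant members was similar in both groups. These levels depend on the length used: by the longest transcript Nfib, at 1299.9 per kb, stood above Nfix, at 1288, in E13.5 controls. The spread within each group was not analysed here, so close neighbours in these orders cannot be separated.

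**Figure D4:**
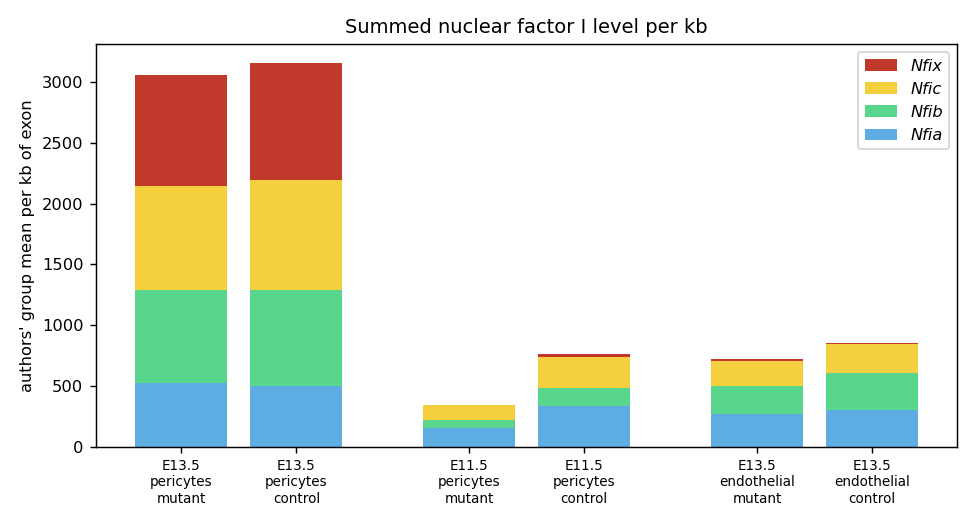
Authors' group means per kb of exon (y axis), stacked over Nfia, Nfib, Nfic and Nfix, for mutants and controls of the 3 sorted populations (x axis). The sums reach 3061 and 3155 in E13.5 mutant and control pericytes, 340 and 759 in E11.5 mutant and control pericytes, and the Nfix share is thin outside E13.5 pericytes.

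In the endothelial cells of E13.5 mutants Nfix and Nfib lay on opposite sides of control. Nfix had an authors' mean of 166 in mutants, against 84.0 in controls, a ratio of 1.97 (log2 ratio 0.98, SE 0.24, deposited FDR 0.0020). Nfib had 3408 in mutants, against 4661 in controls (log2 ratio -0.45, SE 0.14, deposited FDR 0.019). Nfia had 2911 in mutants, against 3246 in controls, and Nfic 1369 in mutants, against 1561 in controls, with log2 ratios of -0.16 (SE 0.23) and -0.19 (SE 0.18) and deposited FDRs of 0.765 and 0.610. Thus 2 of the 4 members were under an FDR of 0.05, where 7.3% of 18132 genes were (2.19% lower and 5.11% higher), and nothing is read from that count. Neither call was kept when the spread was rescaled as above (adjusted p 0.259 for Nfix and 0.514 for Nfib). Scaled to the summed means, which shifts every log2 ratio of this table by 0.13, Nfix stayed higher and Nfib lower.

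Of the 4 members Nfix had the widest gap in percentile between control pericytes and control endothelial cells. At E13.5 its control level stood at the 98.1st percentile of genes in pericytes and at the 32.8th in endothelial cells, ranked within each deposited table. Nfic stood at the 97.5th and the 85.1st percentile, Nfib at the 99.2nd and the 96.2nd, and Nfia at the 97.0th and the 93.9th. Pericyte markers were also read in the endothelial sort, where the 9 listed summed to 1180 in mutants and 1808 in controls, and none passed the threshold (2 had an unadjusted p under 0.05). In pericytes they summed to 24059 in mutants and 23881 in controls, with 1 of the 9 called, Rgs5, which was lower in mutants. The gap between the sorts varied by marker: the control mean of Ndufa4l2 was 89.7 in pericytes and 64.5 in endothelial cells, that of Abcc9 was 1342 in pericytes and 575 in endothelial cells, and that of Notch3 was 4595 in pericytes and 57.3 in endothelial cells, in tables normalized separately. Erythroid markers were all 8 higher in endothelial cells of mutant embryos, their sum in mutants standing at 2711% of that in controls. Of 10 myeloid markers 1 rose, with sums of 17788 in mutants and 11561 in controls. Of all genes tested in endothelial cells 5.11% rose. Cartilage and bone markers summed to 2137 in mutants and 9605 in controls, and none of the 6 passed, with 3 at an unadjusted p under 0.05. Their part in the endothelial values was not tested.

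Other transcripts overlap the family's loci, and the strand setting of the counting is not given in the sources used here. Nfix (ENSMUSG00000001911.16, chromosome 8, 84699876 to 84800344, minus strand, mm10) spans 2 genes of the opposite strand. One is G430095P16Rik, whose exons share 137 bases with those of Nfix. That stretch is 19.0% of the exon length of G430095P16Rik and 1.86% of that of Nfix. In endothelial cells G430095P16Rik had a mean of 134 in mutants, against 61.0 in controls (log2 ratio 1.14, FDR 0.0040), and at E11.5 it had 15.6 in mutants, against 36.4 in controls, in the authors' deposited tables. The other is Lyl1, a blood and endothelial transcription factor, whose exons share 4 bases with Nfix and whose mean in endothelial cells was 1856 in mutants, against 1329 in controls. At E11.5 Lyl1 fell, with 14.03 in mutants, against 43.91 in controls (log2 ratio -1.65, FDR 0.0073). Without strand, reads of Nfix and of G430095P16Rik in the shared stretch cannot be told apart, and in the endothelial cells the 2 genes are of similar level. In E13.5 pericytes G430095P16Rik averaged 82.4 in mutants and 83.3 in controls, far below Nfix. Nfic (ENSMUSG00000055053.18, chromosome 10, 81396186 to 81455635, minus strand) shares 72 exon bases with the antisense gene Gm16104. In endothelial cells Gm16104 averaged 184 in mutants and 112 in controls. Nfib (ENSMUSG00000008575.17, chromosome 4, 82290173 to 82705750, minus strand) shares no exon base with another gene, and Nfia (ENSMUSG00000028565.18, chromosome 4, 97772734 to 98118874, plus strand) shares 4. The antisense transcript Gm11266, which lies within Nfib, averaged 4.85 in mutants and 16.9 in controls at E11.5 (log2 ratio -1.80, FDR 0.0982). No stretch of 50 bases was common to annotated transcripts of different members.

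Genes of early embryonic progenitors, which decline as nuclear factor I genes rise in mouse tissues, lay on the other side of control at E11.5. Of 9 such genes 6 rose in mutant pericytes and none fell, where 0.642% of all genes tested rose, with a median log2 ratio of 0.72 against 0.00 over all genes; several of them were known to be higher when the list was written, so the count is no independent evidence. Lin28a, an RNA-binding repressor of let-7 maturation, had a mean of 389 in mutants, against 59.4 in controls (FDR 1.3e-06). Sall4, a transcription factor of pluripotent cells, had 751 in mutants, against 175 in controls (FDR 2.8e-06). Its log2 ratio was 2.10, and that of Trim71, an RNA-binding ubiquitin ligase, was 1.27 (FDR 0.028). Lin28b rose to 939 in mutants, against 424 in controls, and the oncofetal RNA-binding protein genes Igf2bp1 and Igf2bp3 had log2 ratios of 0.71 and 0.51. Hmga1, a chromatin protein gene, had 0.72 (FDR 0.067), Hmga2 -0.40 and Igf2bp2 0.07. At E13.5 Trim71 alone of the 8 tested passed in pericytes, with 242 in mutants, against 122 in controls (FDR 0.00051). Of all genes tested in E13.5 pericytes 0.388% were called, and sex and genotype cannot be told apart in that comparison. In endothelial cells 1 of 9 was called, where 7.3% of all genes tested were. That gene, Igf2bp1, was lower in mutants, with a log2 ratio of -0.39 and an FDR only just under 0.05.

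In control pericytes 6 of the 8 early progenitor genes that could be ranked were lower at E13.5 relative to the median gene, with a median log2 change of -1.35. The control mean of Sall4 was 28.9 at E13.5, against 175 at E11.5, and that of Igf2bp1 was 5611 at E13.5, against 12465 at E11.5. Lin28a, below the level needed for ranking, had 4.02 at E13.5, against 59.4 at E11.5. Hmga2 and Igf2bp2 had changes of 0.42 and 0.17. The mutant ratio at E11.5 and the change in controls share the E11.5 control samples, so the opposite signs of the 2 values for a gene are not separate observations. Finer staging of the embryos is not in the labels, and its part in the E11.5 values was not tested.

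**Figure D5:**
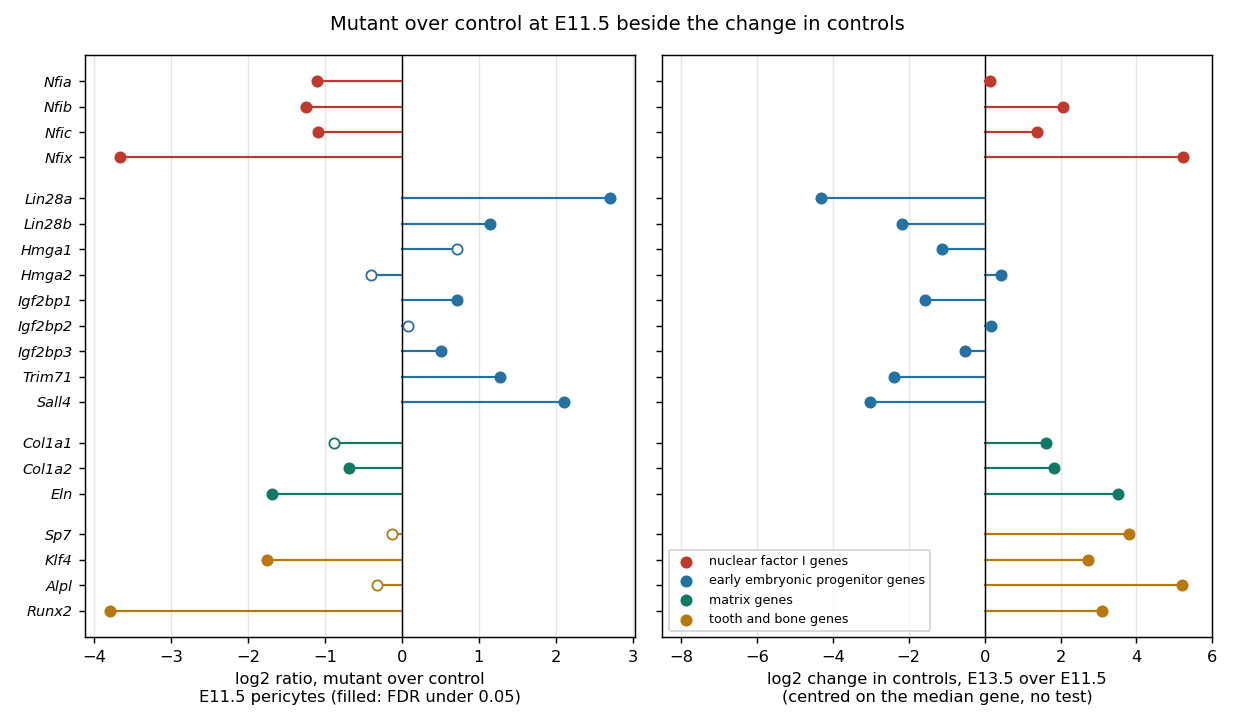
Left, log2 ratio of mutant over control in E11.5 pericytes (x axis), with filled points under an FDR of 0.05. Right, log2 change in control pericytes, E13.5 over E11.5, relative to the median gene (x axis), for the nuclear factor I genes, early embryonic progenitor genes, matrix genes, and tooth and bone genes (y axis). Nfix has -3.67 on the left and 5.22 on the right, and Lin28a 2.71 and -4.30, with the E11.5 controls shared by both panels.

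Genes reported downstream of nuclear factor I proteins differed in direction at E11.5. Among astrocyte and radial glia genes bound or switched on by NFIA and NFIB, 1 of 11 tested fell at E11.5, 1 rose, and the median log2 ratio was -0.19. Of all genes tested there 2.7% fell and 0.642% rose. Apcdd1, a Wnt inhibitor gene, had a mean of 133 in mutants, against 357 in controls (log2 ratio -1.42, SE 0.31, FDR 0.0011). Sparcl1, a matricellular protein gene, rose to 5099 in mutants, against 3958 in controls (FDR 0.014). The astrocyte gene Gfap was listed at means of 4.23 in mutants and 3.89 in controls and was given no FDR, and Hepacam was not listed. At E13.5 0 of 11 of these genes were called in pericytes, and 0 had an unadjusted p under 0.05. In endothelial cells 1 of 10 was called, where 7.3% of all genes tested were. That gene was Gjb6, which encodes a connexin, with 10.9 in mutants, against 47.8 in controls (FDR 0.011).

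Matrix genes with nuclear factor I elements described in their promoters had lower means in mutants at E11.5. Of 3 tested 2 fell, with a median log2 ratio of -0.88, where 2.7% of all genes tested fell. Eln, the elastin gene, had a mean of 72.2 in mutants, against 233 in controls (FDR 7.8e-05), and the collagen gene Col1a2 had 10586 in mutants, against 17120 in controls (FDR 0.025). Col1a1, another collagen gene, had a log2 ratio of -0.88 and an FDR of 0.102. At E13.5 0 of 3 were called, and 0 had an unadjusted p under 0.05, in pericytes as in endothelial cells. Of 4 tooth and bone genes linked with NFIC and tested at E11.5, Runx2, a bone progenitor transcription factor, had 33.6 in mutants, against 466 in controls (log2 ratio -3.79, FDR 0.00048), and Klf4, a Krüppel-like factor, had 144 in mutants, against 486 in controls (FDR 0.0017). Sp7 and Alpl had log2 ratios of -0.13 and -0.33. At E13.5 0 of these 4 were called in either cell type, with 1 at an unadjusted p under 0.05 in each. Col1a1 and Col1a2 are also fibroblast markers, and Runx2 and Sp7 cartilage and bone progenitor markers, in the lists above.

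Eno3, a muscle enolase gene that NFIX activates in mouse fetal muscle, was higher in mutant pericytes at both stages. In E11.5 pericytes its mean was 1161 in mutants, against 479 in controls (log2 ratio 1.28, SE 0.29, FDR 0.0016). At E13.5 Eno3 was also higher in mutants, at 230 against 142 in controls (log2 ratio 0.70, SE 0.13, FDR 0.00020). Sex and genotype cannot be told apart in that comparison, and the part of Nfix in the Eno3 values was not tested. Eno3 was the 1 gene called at each stage among 5 muscle genes tested downstream of NFIX. Of all genes tested 0.642% rose at E11.5 and 0.224% at E13.5. The other 4 muscle genes tested had log2 ratios between -0.36 and 0.63 at the 2 stages. In endothelial cells 0 of 4 were called, with 2 at an unadjusted p under 0.05. Of the neural progenitor targets 6, 5 and 5 were tested in E13.5 pericytes, E11.5 pericytes and endothelial cells. None was called, with 0, 1 and 3 at an unadjusted p under 0.05. Sox9, the most abundant at E13.5, had log2 ratios of -0.17 (SE 0.15) at E13.5, -0.21 (SE 0.13) at E11.5 and -1.76 (SE 0.88) in endothelial cells. Sox9 is also a cartilage and bone marker in the lists above, and its endothelial means were 1200 in mutants and 4064 in controls. Of 15, 12 and 10 upstream regulators and partners tested in E13.5 pericytes, E11.5 pericytes and endothelial cells, none was called, with 1, 4 and 2 at an unadjusted p under 0.05. At E11.5 their median log2 ratio was -0.56, and Ski, a SMAD and NFI partner, had 848 in mutants, against 1256 in controls (log2 ratio -0.57, SE 0.22, FDR 0.145).

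The genes with values most like each member were found by Euclidean distance over 4 values, the mutant log2 ratio in the 3 tables and the change in controls, among 16468 other genes with a mean of at least 10 in all 6 groups. Vsnl1, Icam1 and 6430548M08Rik were nearest to Nfic, at distances of 0.0996, 0.128 and 0.137 log2 units. Rasgrp3, Gmcl1 and Ring1 were nearest to Nfia (0.149, 0.188 and 0.192), and Abca1, Bicc1 and Gm2415 to Nfib (0.166, 0.220 and 0.229). Nfix had no such close neighbour among the genes searched, since the nearest was Pgm5 at 2.01, followed by Runx2 at 2.28 and Agtr2 at 2.32. Nfix itself passed the level of 10 narrowly, at 11.1 in E11.5 mutants, and genes below 10 in that group were not searched. The E11.5 ratio and the control change also share the E11.5 control samples. Within the family Nfib and Nfic were closest, at 0.751, and Nfix lay at least 4.23 from every other member.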

How the data were processed

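Sorted cells went into KAPA mRNA libraries for a NovaSeq sequencer, per the labels' protocols. The authors name Bowtie2, Partek and DESeq2 without versions, and the build mm10, per the submitters' processing notes. The annotation, counting, strand setting, filters and model formula are not given in the sources used here. Deposited by the authors were 3 tables, 1 for each population. Per the file headers, each lists per gene a p-value, its step-up FDR, a ratio (mutant over control), a signed fold change, which is a score and was not used, and a least-squares mean for the mutant and for the control group. Those deposited means are a signal in normalized read counts of unstated scale. Values per library were not analysed here, so depth is unknown and no SD or counting interval is given. Benjamini-Hochberg adjustment of the deposited p-values gave back the FDR for the 20084, 19301 and 18132 genes with one (E13.5 pericytes, E11.5 pericytes, endothelial cells). The authors' FDR, an adjusted p taken to come from their DESeq2 run, is printed throughout.

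Each log2 ratio is that of the deposited ratio. Its SE is its size over the normal deviate of the two-sided p. The p-values cover the spread between samples that may be technical, since no label names separate litters. The change between stages was centred on the median gene. The members and gene lists were chosen with earlier results of these data known. Of the related lists 2 genes are not reported here and are left out of the counts. Named genes are the 4 members, Tgfbr1, each related gene called in at least 1 table or else the most abundant of its list, and the 3 nearest genes per member. Xist, overlapping genes and other list members were named outside that rule, after their values were seen. Positions come from GENCODE M21 and promoters from RefSeq. The steps were tested on simulated data, in Python 3.11.15 with scipy 1.17.1, numpy 2.4.6, pandas 2.3.3 and matplotlib 3.10.9.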

Additional observations from a re-analysis of the deposited data

How the results depend on the processing

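At E11.5 all 4 members kept an FDR under 0.05 with no filter on low genes, and with a log2 ratio of at least 1 (315 genes called in place of 646). At an FDR of 0.1, which cannot drop a member, 1139 genes were called. With the spread rescaled, an alternative chosen after seeing the data, 5 genes passed at E11.5, 142 in place of 78 in E13.5 pericytes and 49 in place of 1323 in endothelial cells, none of them a member, and the cause was not tested. With a log2 ratio of at least 1, 17 genes passed in E13.5 pericytes and 247 in endothelial cells, no member among them. The log2 ratios of the members moved by less than 1 SE under scaling to the summed means or centring. In the control change from E11.5 to E13.5, Nfia turned from 0.14 to -0.17 with equal sums and was 0.56 as deposited. Nfib had 1.76 with equal sums and 2.48 as deposited, Nfic 1.07 and 1.80, and these shifts come from the scaling itself. The Nfix percentile gap between control pericytes and endothelial cells was 65.3 points over all genes and 70.4 over genes of at least 10. Leaving out replicates was not run, since no value per library was used. No paired analysis was possible because the tables hold group means only. Depth is unknown, so no counting interval could be given for Nfix at E11.5, whose mutant mean was 11.1.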
